A study of Mus musculus with 2 samples.

Results

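The 9 genes described here encode POU transcription factors: Pou5f1 (Oct4), Pou2f1, Pou2f2, Pou2f3, Pou3f1, Pou3f2, Pou4f1, Pou4f2 and Pou6f1. They were chosen by symbol, as the genes to which the platform annotation assigns a probeset, and to that gene alone. This rule found 7 of the 9 genes, with 8 probesets among the 21789 probesets of exactly 1 gene, out of 19938 genes in all. Pou2f1 and Pou4f2 were not analysed here for expression. Both samples came from i-OSKM-ESC, a mouse embryonic stem cell line made from KH2 cells of strain 129, in which doxycycline switches on 4 reprogramming factors: Oct4, Sox2 (with an epitope tag), c-Myc and Klf4. Cells were plated on gelatin-coated plastic, and 24 hours later 1 culture received doxycycline at 4 µg/mL while the other was given fresh medium without it. RNA was taken after a further 24 hours and hybridised to 1 whole-transcript array per condition. Both cultures carry the inducible genes, and an effect of the drug itself and one of the factors cannot be told apart. Where the transgenes lie and whether the line is 1 clone is not stated in the labels.

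With 1 array per group there is no replicate error and no test, and precision is limited by having 2 arrays. Every difference below is the log2 value with doxycycline minus the log2 value without it, and every fold is the larger over the smaller value on the linear scale.

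POU proteins bind DNA through a bipartite domain, a POU-specific part joined by a linker to a POU homeodomain, and most of them recognise the octamer ATGCAAAT or a close variant. Oct4 works with Sox2 at paired octamer and Sox sites to hold embryonic stem cells in the pluripotent state, and both too much and too little of it drive these cells out of that state. The other classes serve other tissues: Pou2f1 is widely expressed, Pou2f2 acts in B cells, Pou2f3 in epidermis and in tuft cells, and the Pou3f and Pou4f genes mainly in the nervous system.

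Promoter sequences show what regulatory letters the members carry. Windows of 300 bases from RefSeq, build GRCm38.p6, running from 250 bases before a gene's start to 50 after it, were given for 7 members (10 windows): Pou5f1, Pou2f1, Pou2f2, Pou3f2, Pou4f1, Pou4f2 and Pou6f1. Pou2f3 and Pou3f1 had no entry. Each motif was searched on both strands. The octamer ATGCAAAT was in 0 of the 10 windows, against 1.74% of all 32851 windows. The GC box GGGCGG, a site of Sp family factors, was in 7 of the 10 windows, against 35.7% of all. The hormone receptor motif AGGTCA, recognised by orphan nuclear receptors that act on Pou5f1, was in 1 of the 10, against 16.3% of all. That one was Pou5f1, where the GC box starts 45 bases and the receptor motif 33 bases before the gene's start. The 250 bases upstream of Pou5f1, chr17:35505782-35506031 on the plus strand, are shown because this is the resident copy of the induced gene. Those upstream of Pou6f1, chr15:100599985-100600234 on the minus strand, are shown because its window was the only one among the 10 that held the first 7 bases of the octamer, ATGCAAA. That shorter motif was searched after the sequences had been seen, is in 4.63% of all windows, and overlaps the octamer by construction. Capitals mark GC boxes in both, the receptor motif in Pou5f1, and in Pou6f1 the 7 bases, which lie on the opposite strand 138 bases before the start.
Pou5f1: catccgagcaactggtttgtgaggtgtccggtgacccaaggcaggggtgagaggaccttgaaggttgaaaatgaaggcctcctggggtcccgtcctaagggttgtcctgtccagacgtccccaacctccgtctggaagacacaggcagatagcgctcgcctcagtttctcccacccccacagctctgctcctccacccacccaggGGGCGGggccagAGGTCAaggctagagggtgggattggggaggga
Pou6f1: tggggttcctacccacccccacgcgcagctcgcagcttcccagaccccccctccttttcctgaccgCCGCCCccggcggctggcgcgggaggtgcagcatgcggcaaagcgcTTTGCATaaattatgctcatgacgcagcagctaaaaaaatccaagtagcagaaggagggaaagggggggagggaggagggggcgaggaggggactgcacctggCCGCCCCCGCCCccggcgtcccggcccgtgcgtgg

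The other windows with a GC box belong to Pou2f1 and Pou2f2 with 2 each, Pou4f1 with 2, Pou3f2 with 5 and Pou4f2 with 5, and overlapping matches were counted singly, as in the last 4 of Pou3f2. A match describes the letters of these windows, and binding was not measured.

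Pou5f1, which encodes Oct4, had a log2 value of 12.46 on the array with doxycycline and 12.05 on the array without it. It was thus 1.33-fold higher with the drug, a log2 difference of 0.41. Of the genes passing the expression filter (higher value at or above 6.48, the median over the whole table), 6.77% differed upward by as much or more. Its 1 probeset may read the induced copy, the resident copy or both, since the sources used here do not say where in the transcript its probes lie. Retrocopies of Pou5f1 lie elsewhere in the mouse genome. Pou5f1-rs4, a transcribed pseudogene looked up after the values of Pou5f1 were seen, had 5.07 with doxycycline and 4.68 without, a difference of 0.39 at a level below the filter. Whether its probeset also picks up Pou5f1 transcripts was not tested.

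The octamer class proper, Pou2f, was measured by Pou2f2 and Pou2f3. Pou2f3, a regulator of epidermal differentiation and of tuft cell identity, had 8.49 with doxycycline and 7.57 without, a difference of 0.93 or 1.90-fold. This was the widest gap among the 7 measured members, and 1.13% of genes passing the filter differed upward by as much or more. It lies just under the 2-fold rule used for calls. With a loess trend on mean expression removed, its difference became 1.01 and passed that rule. Pou2f2, a B cell octamer factor, had 6.27 with doxycycline and 6.34 without, a difference of -0.07 at a level below the filter.

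**Figure D1:**
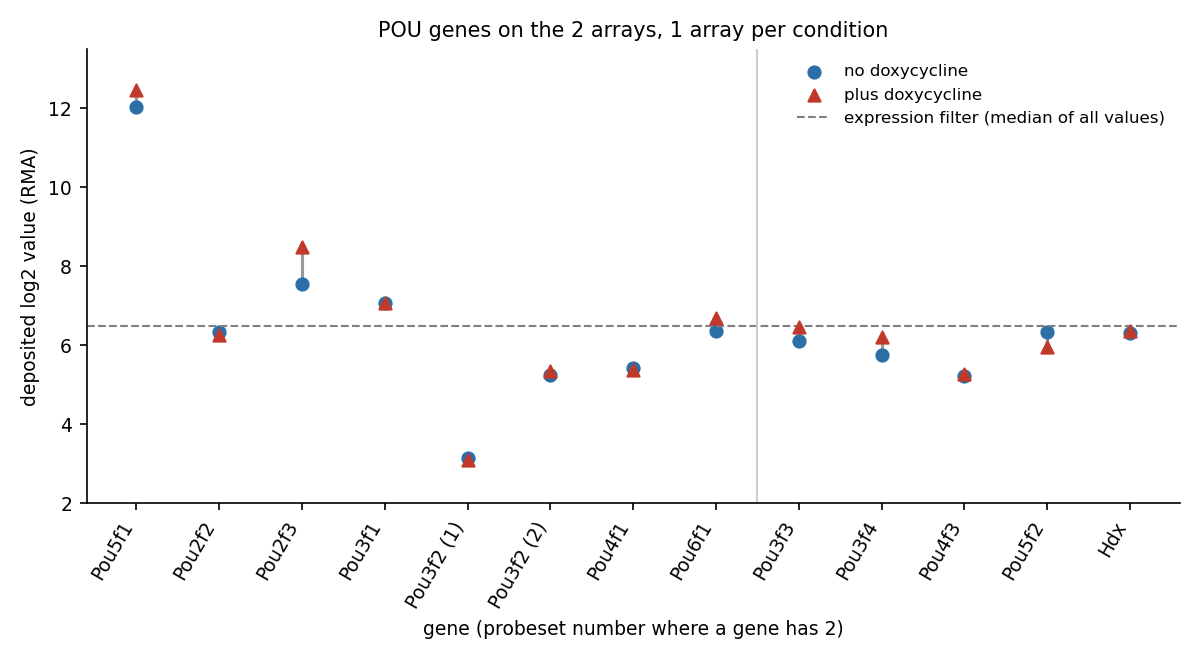
Deposited log2 values (y axis) of each probeset of 7 POU octamer factors, left of the vertical line, and of 5 other POU genes, right of it. Circles are the array without doxycycline, triangles the array with it, and the dashed line is the expression filter at 6.48; heights of different genes are not comparable, and the widest gap is that of Pou2f3, from 7.57 to 8.49.

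The 3 measured members of the neural classes, Pou3f1, Pou3f2 and Pou4f1, had differences between -0.06 and 0.01. Pou3f1 (Oct6), expressed in the early epiblast and later in neural and Schwann cell precursors, had 7.09 with doxycycline and 7.07 without, a difference of 0.01. Pou3f2 (Brn2), a neuronal factor, has 2 probesets, with 3.09 against 3.16 on the first and 5.35 against 5.25 on the second. Its probesets differed in opposite directions, by -0.07 and 0.10, and their mean by 0.01. The sign of that mean turned to -0.0019 with the loess trend removed. Pou4f1 (Brn3a), a factor of sensory neurons, had 5.38 with doxycycline and 5.44 without, a difference of -0.06. Both Pou3f2 and Pou4f1 lay below the filter.

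Pou6f1, a POU factor of the brain with no settled role in stem cells, had 6.70 with doxycycline and 6.36 without, a difference of 0.34 or 1.26-fold. Its value without the drug was under the filter and its value with the drug just over it, so it passed only through the treated array. As many as 9.62% of genes passing the filter differed upward by at least its amount.

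Of the 7 measured members, 4 passed the filter: Pou5f1, Pou2f3, Pou3f1 and Pou6f1. At the 2-fold rule, 0 of these 4 were called, where 1.69% of the 11191 genes passing the filter were called, 0.92% higher and 0.768% lower with doxycycline. At 1.5-fold, 1 of the 4 (Pou2f3) was higher and 0 were lower, against a background of 3.24% higher and 3.8% lower. With so few genes such shares cannot be compared. The median difference of the 7 measured members was 0.01, beside 0.0083 over all genes. Values were higher with doxycycline in 5 of the 7 and lower in 2, beside 51.6% and 48.3% of all genes.

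Differences vary with signal level, so each member was also set among the genes of its own expression bin (20 bins of equal size). The robust SD of differences, a spread across genes and not an error between cultures, lay between 0.161 and 0.297 in these bins. The difference of Pou2f3 was 3.63 times the robust SD of its bin, and 98.8% of the genes there had a smaller or more negative difference. For Pou5f1 the multiple was 2.48 and for Pou6f1 it was 1.23. The other 4 members, Pou2f2, Pou3f1, Pou3f2 and Pou4f1, lay within 1 robust SD of 0.

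**Figure D2:**
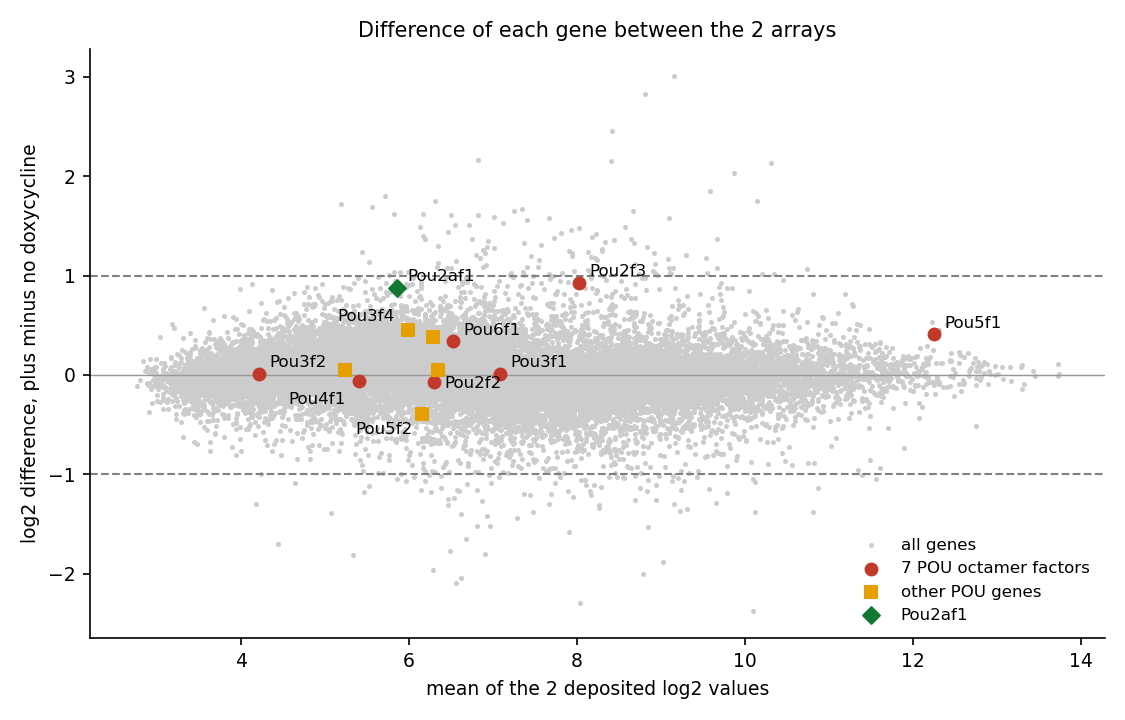
Log2 difference between the arrays (y axis, plus minus no doxycycline) against the mean of the 2 log2 values (x axis), with all 19938 genes in grey and POU genes in colour. Dashed lines mark 2-fold; no POU gene lies beyond them, and Pou2f3 (0.93) and the coactivator gene Pou2af1 (0.88) come nearest.

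The remaining POU genes were all dim. Of the 5 that were measured, 0 passed the filter, so none could be called. Pou3f4 (Brn4), a factor of inner ear and forebrain, had 6.22 with doxycycline and 5.76 without, a difference of 0.46. Pou3f3 (Brn1), a cortical and kidney factor, had 6.48 against 6.10, a difference of 0.38 that ended just short of the filter. Pou5f2, a germ cell relative of Oct4, went the other way, with 5.96 against 6.35, a difference of -0.39. Pou4f3, a hair cell factor, and Hdx, a POU homeobox gene of little-known function, both differed by 0.05.

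Proteins that octamer factors work with were taken as a list: the B cell coactivator Pou2af1, the subunits of the snRNA activating complex that Pou2f1 helps to recruit, an RNA polymerase III subunit, and enzymes found in a histone H2B coactivator. Of its 11 genes 10 were measured and 9 passed the filter, with 0 called and a median difference of 0.07. Among all genes passing the filter 1.69% were called. Pou2af1 had 6.30 with doxycycline and 5.42 without, a difference of 0.88 or 1.84-fold, but both values lay under the filter. Pou2f3 differed by a similar log2 amount (0.93), but with 2 arrays this shows no link between the 2 genes. Among the subunits, Snapc3 differed most, with 9.77 against 10.20 and a difference of -0.43. The other subunits lay between 0.06 (Snapc1) and 0.12 (Snapc5). The polymerase subunit gene Polr3d had 0.12, and lactate dehydrogenase gene Ldha had -0.10.

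Tissue markers were read beside these genes. All 10 embryonic stem cell markers, among them Nanog, Zfp42 and Dppa5a, passed the filter, on values between 9.56 and 13.0. None of the 10 was called at 2-fold, where 1.69% of all genes passing the filter were called. At 1.5-fold, 3 were lower, beside 3.8% of all genes passing. Values were lower with doxycycline in 8 of the 10, beside 55.5% of all genes passing the filter. The median difference was -0.44, and Utf1 (-0.95), Tfcp2l1 (-0.89), Tdgf1 (-0.73) and Dppa5a (-0.52) differed most. The enhancer list described further on holds 6 of these 10 genes, so the counts overlap. Of 6 B cell markers measured, 1 passed the filter (Cd79b, difference -0.29), their values ran from 4.24 to 7.38, and the summed log2 level was 31.74 with doxycycline and 31.99 without. Of 9 tuft cell and keratinocyte markers, 1 passed (Gfi1b, difference 0.44, through the treated array alone). The summed log2 level of these 9 was 53.3 against 51.8. The other 8, all below the filter, differed by -0.01 (Avil) to 0.34 (Krt5), with 0.25 for the tuft cell channel gene Trpm5. The part of such cells in the higher value of Pou2f3 was not tested.

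Neuron markers included called genes. Of 10 measured, 6 passed the filter and 2 were called higher, the tubulin gene Tubb3 (8.94 against 7.67) and the microtubule gene Map2 (8.04 against 6.71), where 0.92% of all genes passing were called higher. With a filter at the 75th percentile of all values, 1 was called. The neuron list was also chosen with earlier results of these data known. Of the other 4 that passed, Stmn2 had a difference of 0.53, at 12.49 against 11.96, far above the filter on both arrays. The neurofilament gene Nefl had 0.32, the synaptic gene Syt1 0.79 and Rbfox3 0.54. Syt1 and Rbfox3 passed only through the treated array, so their direction was set by the filter. The 4 markers below the filter had 0.20 (Snap25), 0.01 (Nefm), -0.01 (Dcx) and -0.06 (Elavl4). The summed log2 level of the list was 71.3 with doxycycline and 66.4 without. Such sums weigh each gene alike, also those below the filter, and are not totals of signal. Among the neural POU genes, Pou3f2 and Pou4f1 differed by 0.01 and -0.06, and Pou3f3 and Pou3f4 by 0.38 and 0.46, all below the filter. Among 9 fibroblast markers 6 passed, 3 higher and 3 lower with doxycycline. Of these 6, 0 were called, beside 1.69% of all genes passing the filter. The largest differences among those passing were 0.50 (Col1a2), 0.45 (Col1a1), 0.27 (Thy1) and -0.25 (Pdgfrb, through the untreated array alone). The summed log2 level of these 9 markers was 58.9 against 57.4. In a bulk sample, a few cells of another type and a little more RNA per cell cannot be told apart.

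Genes known to act downstream of neural POU factors formed a further list, which shares Nefl, Nefm and Snap25 with the neuron markers. Of 19 listed, 16 were measured, 7 passed the filter and 0 were called. Among all genes passing the filter 1.69% were called, and 7 genes are too few to set 0 apart from that share. The median difference was 0.02 over the measured genes and -0.29 over those passing. Sox4, a progenitor factor, had the largest difference among those passing, at -0.58 (6.52 against 7.10). Hspb1, a small heat shock protein gene under Pou4f1 in sensory neurons, had -0.36. Runx3 had -0.33 and Nefl had 0.32, opposite in sign.

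Regulators of Pou5f1 transcription were all measured. Of these 20 genes 16 passed the filter and 0 were called, beside 1.69% of all genes passing the filter. Values were lower with doxycycline in 15 of the 20, beside 48.3% of all genes, with a median difference of -0.09. Among the 16 that passed, 12 were lower, beside 55.5% of all genes passing the filter. Among nuclear receptors that recognise the AGGTCA motif seen in the Pou5f1 promoter, Nr5a2 (Lrh1), an activator, differed by 0.17 (9.95 against 9.78). Nr6a1 (GCNF), a repressor active during differentiation, differed by 0.03, with 9.03 on the treated array. Rarg, a retinoic acid receptor, had 0.24, the upper end of the list, and Nr2f6, an orphan receptor, had -0.52, the lower end. The nuclear receptor gene Esrrb had -0.44, the histone methyltransferase gene Ehmt2 (G9a) -0.36 and Sall4 -0.31. Sp1, which binds GC boxes, had -0.03. Not all listed repressors were dim: Nr2f1, Nr2f2 and Cdx2 lay under the filter, while Nr6a1 passed it on both arrays.

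**Figure D3:**
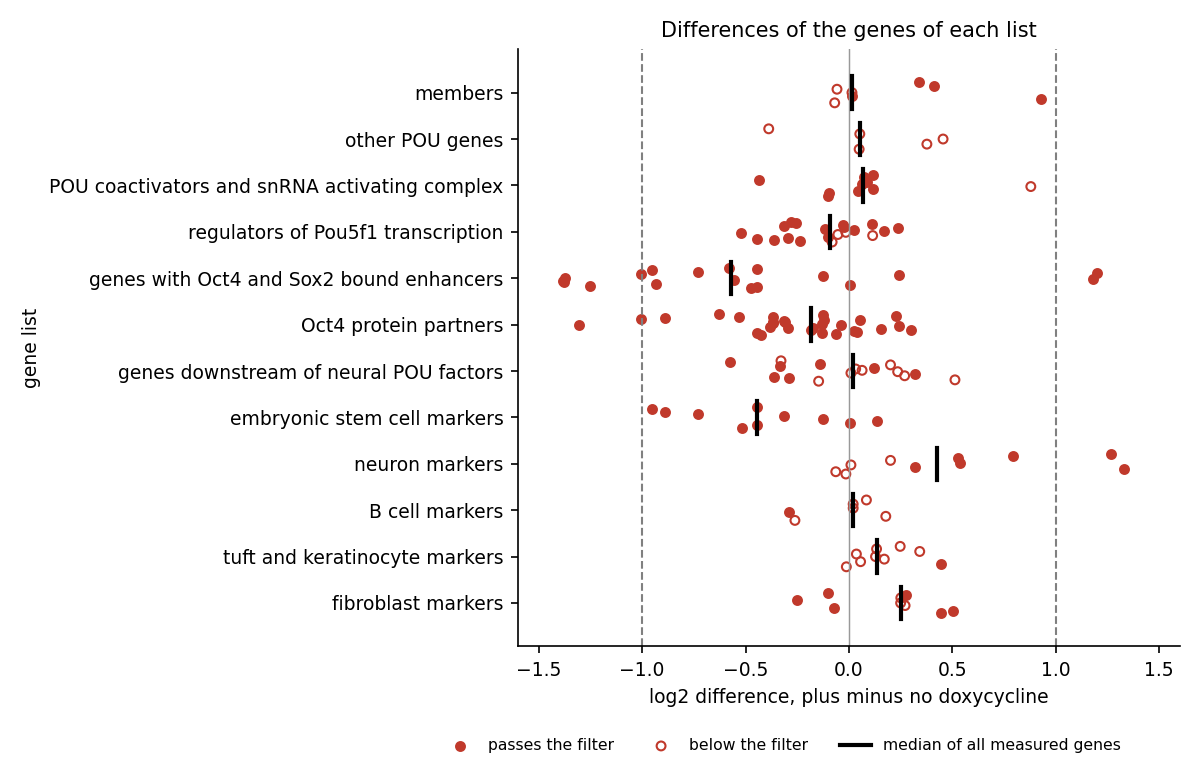
Log2 difference (x axis, plus minus no doxycycline) of every measured gene in each list (y axis), filled where the gene passed the expression filter and open where it did not. Black bars are medians of all measured genes and dashed lines mark 2-fold; the list of genes with Oct4 and Sox2 bound enhancers has its median at -0.57, and the 7 POU octamer factors at 0.01.

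Genes with enhancers bound by Oct4 and Sox2 were mostly lower on the array on which Pou5f1 was higher. Of 19 distinct genes 18 were measured, and all 18 passed the filter. At the 2-fold rule 7 were called, 2 higher and 5 lower with doxycycline, or 38.9% where the background is 1.69%. The list was chosen with earlier results of these data known, so this share is a description and no test of enrichment. The lower genes were Klf5, Klf2, Mycn, Fbxo15 and Sox2, the partner of Oct4, at 10.88 against 11.89. Sox2 is itself one of the induced factors, yet its value was lower on the array labelled as treated. Whether its probeset reads the transgene, the resident gene or both is not stated in the sources used here. The reason for the lower value was not tested, and the directions given here rest on the labels of the arrays. The higher genes were Lefty2 and Tcl1, and Lefty2 (7.44 against 6.26) passed the filter only through the treated array. The direction of Lefty2 was thus set by the filter. Values were lower with doxycycline for 14 of the 18, beside 55.5% of all genes passing the filter. The median difference was -0.57, beside -0.03 over all genes passing the filter. Under 2-fold, the coactivator gene Utf1 had -0.95, Jarid2, a polycomb cofactor gene, -0.93, Tdgf1, the Nodal coreceptor gene, -0.73, and Zscan10, a zinc finger gene of stem cells, -0.58. When 32 was added to the linear values before taking logs, Sox2 (-0.996) and Lefty2 (0.92) were no longer called.

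The promoters of this list show what an octamer match looks like beside the members. Windows were given for 14 of its genes (18 windows), and ATGCAAAT was in 2 of the 18, in Zfp42 and Spp1, of which Spp1 was not analysed here for expression. The first 7 bases were in 5 of the 18 windows, in Sox2, Nanog (both of its windows, which overlap), Spp1 and Zfp42. Nanog alone among these had the Sox motif CATTGT beside it, a motif found in 12.6% of all windows and, like the 7 bases, searched after the sequences had been seen. Stretches of 47 bases are shown for the 3 genes with values, since each carries at least the first 7 octamer bases. Of the 3, Zfp42 alone holds the whole octamer and Nanog alone the Sox motif. They lie at chr6:122707394-122707440 on the plus strand (Nanog), chr8:43307168-43307214 on the minus strand (Zfp42) and chr3:34649876-34649922 on the plus strand (Sox2). Capitals mark the octamer letters on either strand and, in Nanog, the Sox motif on the opposite strand.
Nanog: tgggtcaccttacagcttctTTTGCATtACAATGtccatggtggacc
Zfp42: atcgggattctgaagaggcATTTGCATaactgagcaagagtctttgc
Sox2: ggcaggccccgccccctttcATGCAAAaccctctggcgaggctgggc

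Nanog, with the joined motifs, had 12.06 with doxycycline and 12.18 without, a difference of -0.13. Zfp42, with the whole octamer, had 10.50 against 10.94, a difference of -0.44, and Sox2 had -1.01. All 3 were lower on the treated array, and of them only Sox2 passed the 2-fold rule.

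Proteins known to bind Oct4 formed another list. Of 30 genes 29 were measured, all 29 passed the filter, and 2 were called, both lower: Sox2 and Otx2, an epiblast partner of Oct4 (5.81 against 7.11, difference -1.30). Otx2 passed the filter only through the untreated array, on which it is high, so its direction was set by the filter. The 2 called genes are 6.9% of the list, against a background of 0.768% lower. The list was chosen with earlier results of these data known, so this share is a description and no test of enrichment. With the offset of 32 the count of called genes was 0 because Sox2 (-0.996) and Otx2 (-0.95) both fell short of 2-fold. Lower values were found for 22 of the 29, beside 55.5% of all genes passing the filter, with a median difference of -0.18. Under 2-fold, the partner genes Tfcp2l1 (-0.89), Zfp281 (-0.63), Trim28 (-0.53) and Esrrb (-0.44) differed most. This list shares 3 genes with the enhancer list, Esrrb, Nr0b1 and Sox2, so the counts are not separate. It also shares Esrrb and Sall4 with the regulators of Pou5f1 transcription, and Esrrb, Sall4 and Tfcp2l1 with the stem cell markers.

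Likeness to a member was measured as the gap between 2 log2 differences, over 2 arrays and 92 other list genes that passed the filter. Nearest to Pou5f1 were Gfi1b (gap 0.03), Col1a1 (0.03) and Pou6f1 (0.08). Nearest to Pou2f3 were Syt1 (0.13), Lefty2 (0.25) and Tcl1 (0.27). Pou3f1 was nearest to Fgf4, Nr6a1 and Hdac1, each within 0.014, and Pou6f1 to Nefl (0.02), Hdac2 (0.04) and Thy1 (0.06). Gfi1b, Pou6f1, Syt1 and Lefty2 passed the filter only through the treated array, so the filter favoured genes with higher values there. Genes below the filter were not candidates, among them Pou2af1 (difference 0.88) and Pou3f4 (0.46). With 2 arrays, many genes share a difference of any given size.

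Neighbours along the chromosome were read next. The 2 nearest measured genes on each side in the gene order of GRCm38.p6 were taken for the 7 members. Of these 28 neighbours 21 passed the filter and 0 were called, beside 1.69% of all genes passing the filter. Their differences ran from -0.94 to 0.41. Around Pou5f1, the class I histocompatibility genes H2-Q5 and H2-Q10 differed by 0.02 and 0.07 on one side, and Tcf19 and Cchcr1 by -0.38 and -0.21 on the other. Beside Pou2f3, looked up after its value was seen, Arhgef12 had 0.03, Tlcd5 -0.25, Oaf -0.06 and Trim29 0.09.

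**Figure D4:**
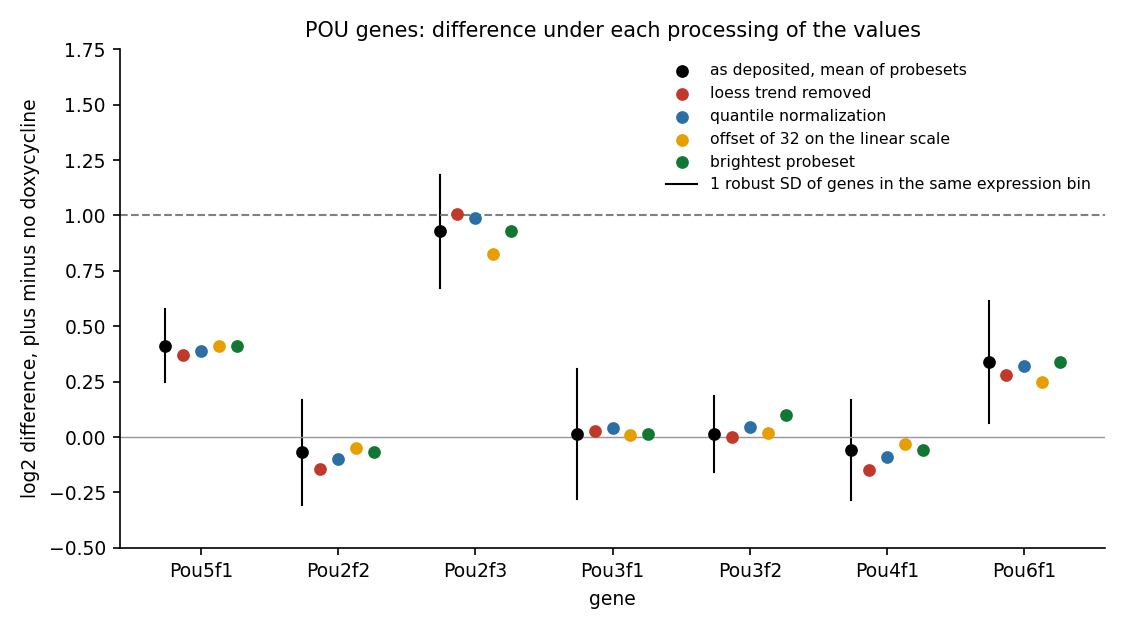
Log2 difference (y axis, plus minus no doxycycline) of each of the 7 measured genes (x axis) as deposited and under 4 other treatments of the values, with a bar of 1 robust SD of the genes in the same expression bin on either side of the deposited difference. Pou2f3 lies between 0.83 and 1.01, around the dashed 2-fold line, and Pou5f1 between 0.37 and 0.41. The brightest probeset could differ from the mean only for Pou3f2.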

How the data were processed

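The table deposited by the authors gives log2 values of 35556 probesets on both arrays. According to the submitters' processing notes, it was made with Affymetrix Expression Console and RMA, which corrects background, normalizes the arrays to each other and summarises probes, and whose compression of dim signals makes folds of dim genes too small. The sources used here name no version, build or annotation. No detection call is given. A gene's value was the mean of its probesets of exactly 1 gene. A gene was called when its higher value reached the median of all values and the log2 difference was at least 1. No test was possible with 1 array per group. The members and the other 11 gene lists were chosen with earlier results of these data known. Genes named are all members, the other POU genes measured, and in each list the called genes and up to 4 others of largest difference among those passing the filter. Other genes, such as markers below the filter, repressors and Nanog, were named after their values were seen. The 2-fold call was the only step tested on simulated data, with noise drawn from the robust SDs of the bins. Figures were drawn with matplotlib 3.10.9, and values computed with pandas 2.3.3, NumPy 2.4.6 and, for loess, statsmodels 0.14.6, under Python 3.11.15.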

Additional observations from a re-analysis of the deposited data

How the results depend on the processing

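No paired analysis was possible because each group has 1 array. The 0 members called became 1 (Pou2f3) with the loess trend removed and 1 at a 1.5-fold threshold. Genes called in all numbered 189, and 109 with a filter at the 75th percentile, 115 with an offset of 32 and 788 at 1.5-fold. The 2 called Oct4 partners became 1 at the 75th percentile filter, 0 with the offset and 4 at 1.5-fold. The median of genes downstream of neural POU factors moved from 0.02 to -0.29 when only genes passing the filter were used. The 2 called neuron markers became 1 at the 75th percentile filter (Tubb3) and 3 at 1.5-fold, and the 0 called stem cell markers 3 at 1.5-fold. The log2 difference of each member moved by less than 1 robust SD of its bin under all alternatives run. Taking the brightest probeset could change Pou3f2 alone, since each other measured member has 1 probeset. Leaving out a replicate could not be done.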
